A study of Mus musculus with 21 samples.

Results

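Kinesins are motor proteins that walk along microtubules, the stiff filaments of the cell skeleton, and use the energy of ATP to carry cargo, move chromosomes or take microtubules apart. In the testis they are known for building the spindles of meiosis, for intraflagellar transport during assembly of the sperm tail, and for carrying vesicles, RNA and organelles in germ cells and in the somatic cells around them. Members that share a cargo often come as close paralogs. A tissue is thus described as much by which paralog it holds as by how much kinesin mRNA it holds.

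The kinesin genes were taken as all entries of the deposited expression table whose symbol begins with Kif or Kifc followed by a digit. There were 47 such entries, and 40 had a mean of at least 1 TPM (an abundance scaled by transcript length and to the same total in each library) over the 21 libraries. These 40 stand among 18977 entries with that mean and 55573 entries in all. Of the 40, 37 are kinesin motor genes, 15 of the spindle and cytokinesis, 8 of the cilium and flagellum and 14 of cargo transport and the cytoplasmic microtubules. The other 3 matched by symbol only: Kif1bp encodes a protein that binds kinesin motors, Kif16bos is annotated as an antisense RNA, and Kif4-ps as a transcribed pseudogene.

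Whole testes of male C57BL6 mice were compared in 4 groups: wild type without heat (n = 6), Mageb4 knockout without heat (n = 6), wild type 72 h after a heat shock (n = 4) and Mageb4 knockout 72 h after a heat shock (n = 5). Mageb4 encodes a protein of the MAGE family, which is made mainly in germ cells, and the comparison asks how its loss alters the transcriptome with and without heat. Not given in the sources used here were the knockout allele, the age of the mice, how hot and how long the heat shock was, and whether each library was 1 animal. The labels' protocols call the replicates biological. RNA was sequenced as polyA-selected stranded libraries, and TPM keeps no read depth, so the counting error of low values is unknown and precision was judged from the replicates alone.

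The labels matched the level of the targeted gene, with Mageb4 at 1.53 to 1.99 TPM in unheated wild type, 7.82 to 8.26 TPM in heated wild type and no more than 0.15 TPM in any knockout library. Within groups, libraries correlated at 0.971 to 0.994 across genes (Pearson, log2 values). Germ cell and somatic markers moved with heat. Markers said to be higher or lower, or to rise or fall, passed the limma test used for the kinesins (adjusted p under 0.05). Of all genes tested, 47.0% were higher and 44.6% lower in heated wild type, and 41.3% and 41.5% in the heated knockout. Summed over 10 markers, round spermatids held 1920 to 2069 TPM in unheated wild type, 1847 to 2051 in the unheated knockout, 113 to 199 in heated wild type, with 435 to 756 in the heated knockout, and 10 of 10 fell in both genotypes. Over 10 markers of elongating and condensing spermatids the sums were 45137 to 56214, 47305 to 54411, 34249 to 46351 and 75038 to 93586 TPM in the same order, with 5 of 10 higher and 3 lower in heated wild type, with 10 of 10 higher in the heated knockout. Sertoli cell markers, also 10, summed to 1194 to 1366, 1499 to 2021, 9665 to 12094 and 4361 to 6350 TPM, and 10 of 10 rose in both genotypes. Spermatocyte markers, 12 in number, summed to 1886 to 2315 TPM over all 4 groups. Singly they moved both ways, with 5 higher and 6 lower in heated wild type, and 4 higher and 7 lower in the heated knockout. The wild-type counts are near the shares of all genes. The other somatic sums, of Leydig cells (8 markers), leukocytes (9), endothelium (7) and peritubular myoid cells (7), did not overlap between heated and unheated libraries, and every one of these markers rose with heat in both genotypes. Of the 10 spermatogonial markers, 9 were tested, and 6 rose and 2 fell in each genotype, while their summed level was lower after heat: 726 to 855 and 721 to 826 TPM in unheated wild type and knockout, against 243 to 295 and 334 to 378 TPM in the heated groups. No marker was at 0 in every library of a group, apart from the epididymal Lcn5 and Lcn8. Epididymal markers reached 3420 TPM in 1 heated wild-type library, replicate 3. In bulk tissue, a change in the number of cells of a type and a change in RNA per cell cannot be told apart. TPM is scaled to a fixed total, so a transcript can also gain or lose TPM as others change. The part of these cell markers in the kinesin results, for rises and falls alike, was not tested.

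In unheated wild-type testis the kinesin mRNAs spanned from 1.26 ± 0.199 TPM for Kif3c to 617 ± 31.7 TPM for Kif2b (mean ± SD, n = 6). The median kinesin stood at 15.9 TPM, beside 10.1 TPM for all genes tested. Kif2b and Kif2c, which encode microtubule depolymerases of the kinesin-13 family, were the most abundant, at 617 and 302.5 TPM. Kif17, Kif27 and Kif9 of the cilium and flagellum followed at 206, 202 and 178 TPM, and then Kif2a at 147 TPM. The libraries of Kif17 and Kif27 overlapped, as did those of Kif27 and Kif9, whereas Kif2b and Kif2c were each separated from the next by a gap between their libraries. Kinesin levels summed to 2329 ± 66.2 TPM in unheated wild type, of which Kif2b gave 26.5% and Kif2c 13% (means over 6 libraries). The sum was 2280 ± 65.6 TPM in the unheated knockout (n = 6), 1009 ± 82.0 in heated wild type (n = 4) and 1703 ± 112.8 in the heated knockout (n = 5).

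**Figure D1:**
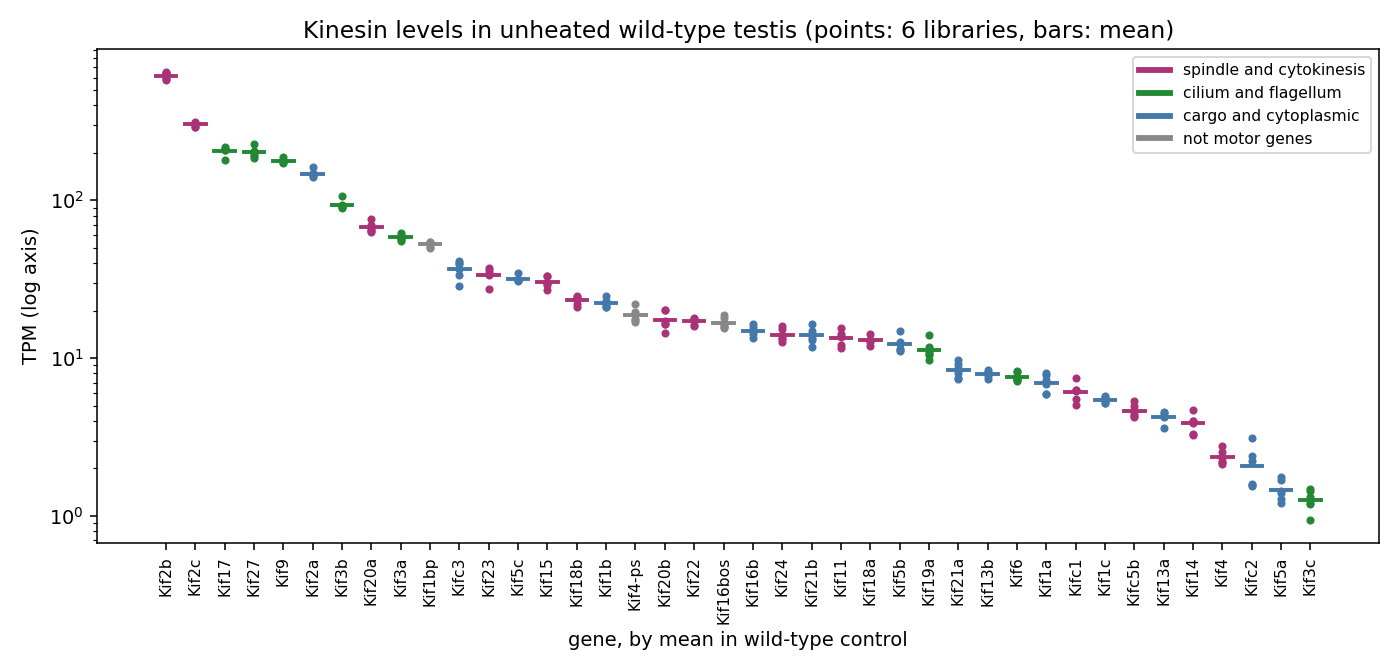
Level of the 40 kinesin entries in unheated wild-type testis, in TPM on a log axis, ordered by mean; points are the 6 libraries, bars their mean, and colour is the role. Kif2b (617 TPM) and Kif2c (302.5 TPM) lead, 3 genes of the cilium and flagellum follow, and Kif3c (1.26 TPM) is lowest.

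Of the 7 entries under the threshold, Kif26a had a mean of 0.745 TPM, Kif7 0.649, Kif26b 0.472, Kif28 0.0767, Kif12 0.00714, Kifc5c-ps 0.00667 and Kif22-ps 0. The lowest inside it were Kif5a at 1.99 and Kif3c at 2.47 TPM. Kif26b, an atypical kinesin, had 0.21, 0.21, 0.19 and 0.18 TPM in heated wild type, and 0.65 to 0.82 TPM in the heated knockout, with 0.30 to 0.59 TPM over the unheated libraries. These 7 were not tested. Each of the 40 inside it had a mean above 1 TPM in every group, so none was kept through 1 group alone.

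More kinesin mRNAs were lower than higher after heat in both genotypes. In wild type, 10 of the 40 were higher 72 h after heat, beside 47.0% of all genes tested, and 29 were lower, beside 44.6% of all genes (limma, Benjamini-Hochberg adjusted p under 0.05). In the knockout, 10 were higher (41.3% of all genes) and 27 lower (41.5%). Calls in either direction took in 91.6% of all genes tested in wild type and 82.8% in the knockout, so that a kinesin was called is near the background. The median change of log2(TPM + 1) over the kinesins was -0.78 in wild type and -0.60 in the knockout, against 0.07 and 0.01 over all genes tested. On this scale a difference understates the fold change of genes near 1 TPM. Median-of-ratios scaling shifted the median of all genes by -0.13 in the wild-type heat comparison and by less than 0.1 in the others. Leaving out the library with epididymal RNA gave 10 higher and 29 lower in wild type, and 9 and 27 in the knockout.

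The roles differed in the count of members that moved each way. In wild type, 14 of 15 spindle members and 7 of 8 ciliary members were lower, with medians of -0.86 and -1.11, while 8 of 14 cargo members were higher and 5 lower, with a median of 0.49. The knockout had 13 of 15 spindle and 7 of 8 ciliary members lower (medians -0.85 and -0.98), and 7 cargo members higher and 5 lower (median 0.19). No test compared the roles with each other. A change called higher in both genotypes was seen for 8 members and lower in both for 26. The share of all genes called alike in both genotypes was not counted. In either direction, 91.6% of all genes tested were called in wild type and 82.8% in the knockout. Both heat comparisons drew on separate libraries but on the same model, with a shared estimate of the spread.

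**Figure D2:**
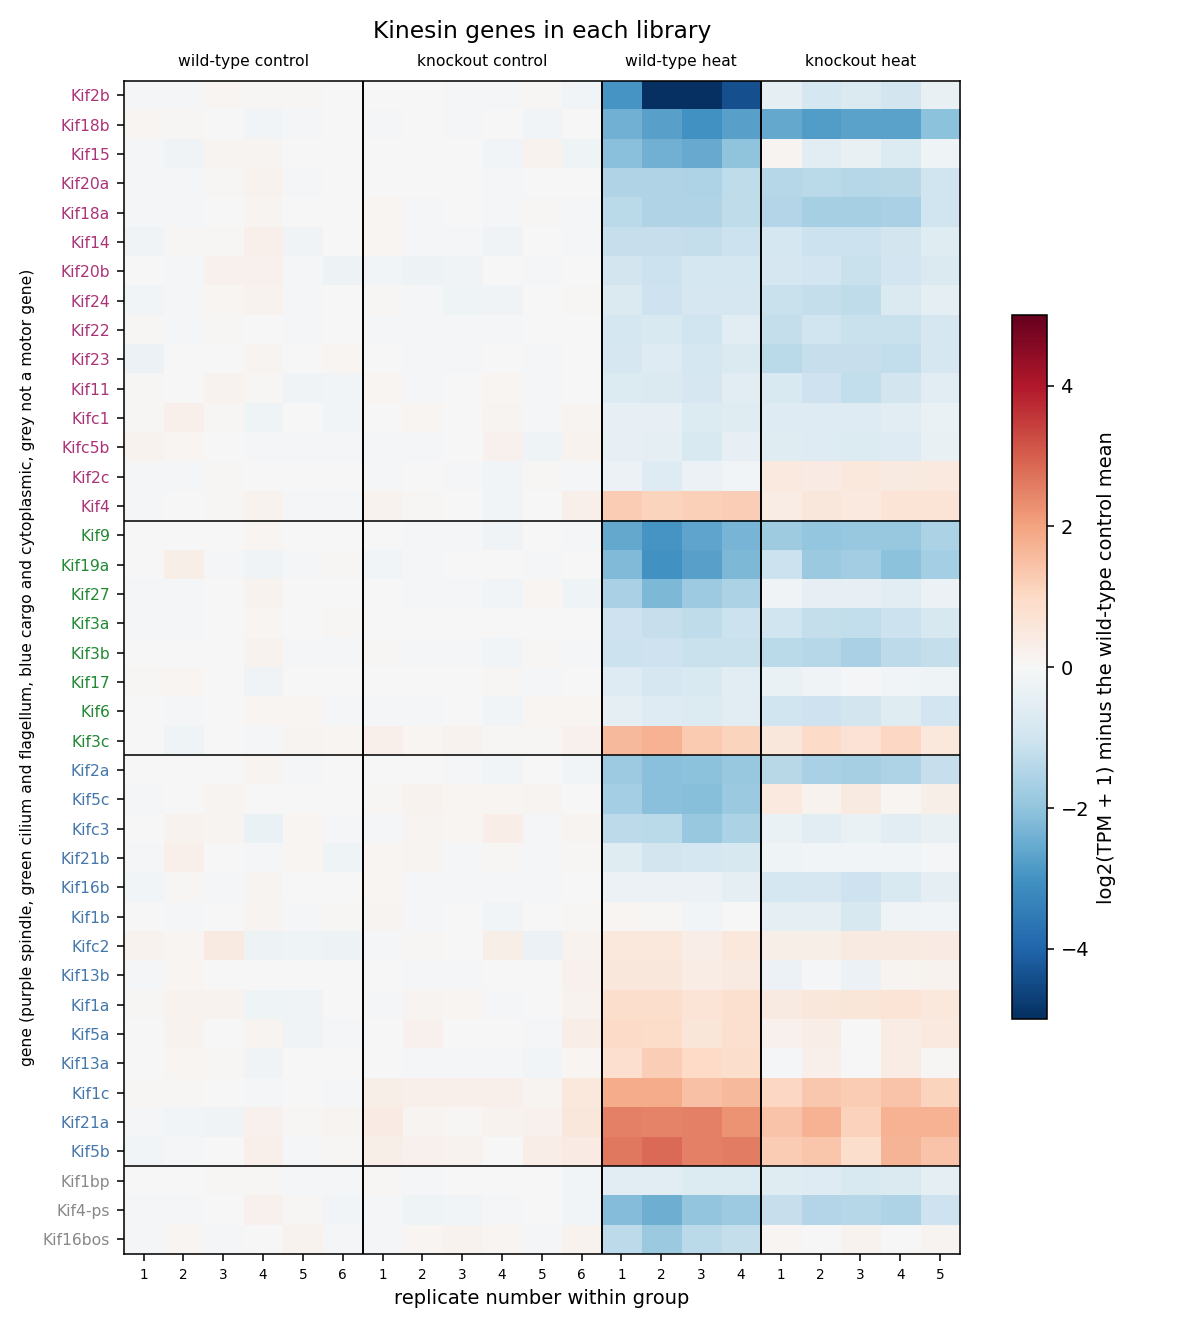
Each kinesin entry (row) in each of the 21 libraries (column), as log2(TPM + 1) minus the mean of unheated wild type, on a colour scale from -5 to 5; black lines part the 4 groups and the roles. The unheated columns of both genotypes are near white, blue (lower after heat) fills most spindle and ciliary rows, and red (higher) most of the lower cargo rows. Kif2b, Kif15, Kif27, Kif5c and Kif16bos are much darker in the heated wild type than in the heated knockout.

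Without heat, no kinesin mRNA passed the test between knockout and wild type. Of the 40, 0 were called in limma (1.33% of all genes tested were called in either direction), 3 had an unadjusted p under 0.05, and the largest difference was 0.28 on the log2 scale. That largest difference was Kif1c, a cargo motor, with 5.20, 5.46 and 5.73 TPM in wild type (lowest, median and highest of 6 libraries, as for every unheated group below) and 6.07, 6.66 and 8.31 TPM in the knockout. Its 2 groups did not overlap, the change was 0.28 ± 0.08 (log2, standard error; adjusted p = 0.0749), and a model of the 2 unheated groups alone gave an adjusted p of 0.0229. Kif21a, with 7.42, 8.36 and 9.78 TPM against 8.70, 9.74 and 12.9 TPM, overlapped and had an adjusted p of 0.204. Sertoli markers were called higher in the unheated knockout for 3 of 10, Leydig markers for 2 of 8 and leukocyte markers for 1 of 9, and their part in these values was not tested.

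Among the spindle kinesins the largest fall was that of Kif2b, a kinesin-13 that shortens microtubules at their ends. Kif2b is an intronless gene on the minus strand at chr11:91575315-91577558 (mm10, GENCODE M21). Unheated wild type had 577, 623 and 652 TPM and the unheated knockout 556, 602 and 646.5 TPM. After heat, the 4 wild-type libraries had 79.5, 18.5, 18.7 and 28.1 TPM and the 5 knockout libraries 449, 336, 372, 329 and 469.7 TPM (in replicate order here and below). The wild-type libraries all lay below the rest, and every heated knockout library lay between them and the unheated ones. The mean fell 17.0-fold in wild type, a log2 change of -4.32 ± 0.25 (adjusted p = 2.74e-13), and 1.54-fold in the knockout, -0.64 ± 0.23 (adjusted p = 0.0166). Without wild-type replicate 1, the highest of its group, the wild-type fall was 28.3-fold. Between heated groups Kif2b was 10.8-fold higher in the knockout (17.96-fold without that library), and the heat effects differed by 3.69 ± 0.34 (adjusted p = 9.26e-09).

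Its paralog Kif2c, a kinesin-13 of the centromere (chr4:117159639-117182639, minus strand), had 290.2, 305 and 314 TPM in unheated wild type and 275, 292 and 318 TPM in the unheated knockout. Heated wild type had 247, 192.5, 247 and 275 TPM, and the heated knockout 419, 405, 431, 412 and 424 TPM. Heated wild type was thus below, and the heated knockout above, all unheated libraries of its genotype. The change was -0.34 ± 0.07 in wild type (adjusted p = 6.5e-05) and 0.51 ± 0.06 in the knockout (adjusted p = 1.93e-07). Under quantile normalization the wild-type change was -0.02 and no longer called. Kif2c was 1.74-fold higher in the heated knockout than in heated wild type, and the heat effects differed by 0.85 ± 0.09 (adjusted p = 6.61e-08).

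The proportion of Kif2b to Kif2c changed with heat. Kif2b stood at 2.04 ± 0.0531 times Kif2c in unheated wild type and 2.05 ± 0.0723 times in the unheated knockout. After heat the ratio was 0.149 ± 0.116 in wild type, with libraries from 0.0758 to 0.322, and 0.934 ± 0.145 in the knockout, from 0.797 to 1.11. Kif2b gave 3.46% of the kinesin total after heat in wild type and 22.9% after heat in the knockout, while Kif2c gave 23.8% and 24.6%.

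**Figure D3:**
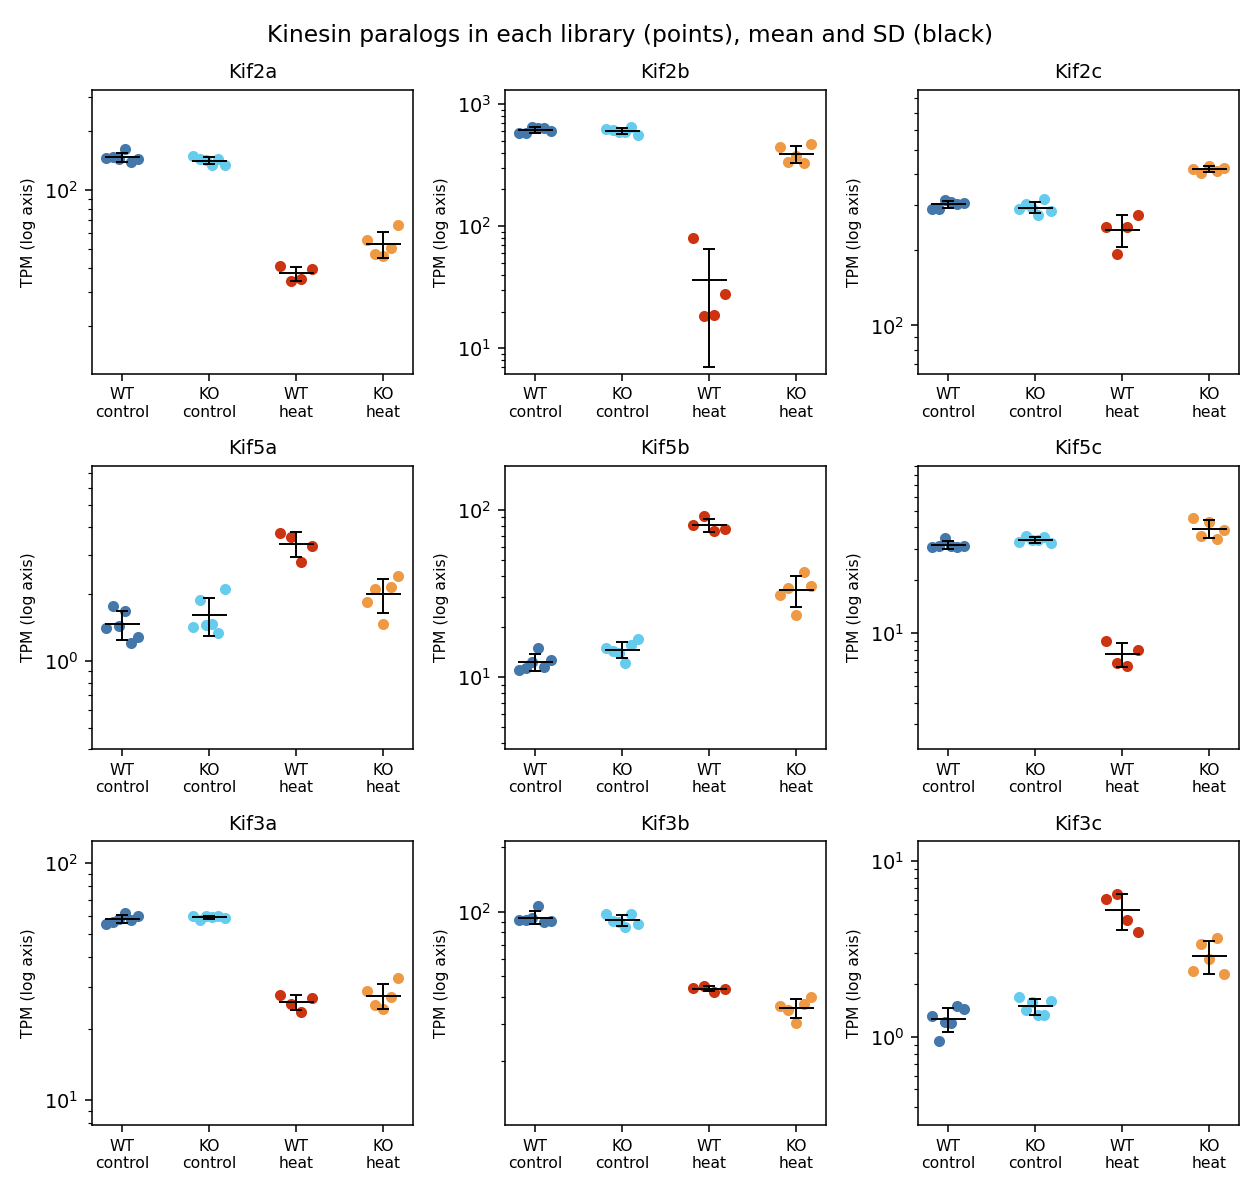
TPM of the kinesin-13 (top), kinesin-1 (middle) and kinesin-2 (bottom) paralogs in each library, on log axes, with mean and SD in black for unheated wild type (WT control, n = 6), unheated knockout (KO control, n = 6), heated wild type (WT heat, n = 4) and heated knockout (KO heat, n = 5). Kif2b and Kif5c are far lower in heated wild type than in the other 3 groups, Kif5b and Kif3c rise most there, and Kif3a and Kif3b are lower in both heated groups.

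Kif15, a kinesin-12 that helps keep spindle poles apart (chr9:122951046-123018733, plus strand), also fell far more in wild type than in the knockout. It had 26.8, 30.1 and 33.3 TPM in unheated wild type and 26.1, 30.1 and 34.9 TPM in the unheated knockout. The heated wild-type libraries had 6.34, 4.94, 4.45 and 6.76 TPM, and the heated knockout 33.9, 20.6, 23.3, 18.4 and 26.0 TPM. The wild-type groups were separate, while replicate 1 of the heated knockout lay inside the unheated range and replicate 5 just below it. Kif15 fell 5.42-fold in wild type, by 2.26 ± 0.13 on the log2 scale (adjusted p = 2.27e-13). The knockout change of -0.30 ± 0.12 (adjusted p = 0.0253) was not called under quantile normalization (-0.17) or without knockout control replicate 5 (-0.26), knockout heat replicate 2 (-0.25) or knockout heat replicate 4 (-0.21). The heat effects differed by 1.95 ± 0.18 (adjusted p = 6.78e-09).

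Kif18b and Kif18a, kinesin-8 motors that act at microtubule plus ends and help align chromosomes, fell in both genotypes. Kif18b (chr11:102905529-102925124, minus strand) had 21.2, 23.4 and 24.9 TPM in unheated wild type and 21.3, 22.6 and 23.5 TPM in the unheated knockout. After heat there were 3.56, 2.69, 1.98 and 2.73 TPM in wild type and 3.15, 2.48, 2.76, 2.84 and 4.86 TPM in the knockout. The heated groups overlapped each other and lay far below the unheated ones. The falls were 8.49-fold (-2.71 ± 0.12, adjusted p = 1.64e-15) and 7.03-fold (-2.51 ± 0.11, adjusted p = 2.54e-14), and they differed by 0.20 ± 0.16 (adjusted p = 0.24).

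Kif18a (chr2:109280738-109341747, plus strand) had 11.9, 13.1 and 14.3 TPM in unheated wild type and 12.0, 12.8 and 13.9 TPM in the unheated knockout. Heated libraries had 4.53, 4.00, 3.97 and 4.76 TPM in wild type and 4.08, 3.41, 3.38, 3.51 and 6.09 TPM in the knockout. The log2 changes were -1.40 ± 0.10 and -1.47 ± 0.10, and their difference of -0.07 ± 0.14 did not pass (adjusted p = 0.628). Without knockout heat replicate 5, the highest, that difference was -0.20 and passed (adjusted p = 0.0482).

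Kif4, a chromosome-bound kinesin of the spindle midzone (chrX:100625737-100727214, plus strand), was the single spindle member higher after heat in wild type. It had 2.14, 2.27 and 2.77 TPM in unheated wild type and 2.07, 2.40 and 3.04 TPM in the unheated knockout. The heated libraries had 7.07, 6.34, 6.70 and 6.80 TPM in wild type and 3.34, 4.02, 3.66, 4.46 and 4.42 TPM in the knockout. The unheated, heated knockout and heated wild-type ranges did not overlap. Kif4 rose 2.85-fold in wild type (1.20 ± 0.08, adjusted p = 7.23e-12) and 1.59-fold in the knockout (0.51 ± 0.08, adjusted p = 4.22e-06), a difference of -0.69 ± 0.11 (adjusted p = 1.37e-05).

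Kif4-ps, a pseudogene copy on chr12:101145614-101149758, moved the other way. Its mean was 18.8 ± 1.87 TPM in unheated wild type, 17.3 ± 0.796 in the unheated knockout, 3.67 ± 0.857 in heated wild type, with 6.94 ± 1.21 in the heated knockout. It fell by 2.10 ± 0.11 on the log2 scale in wild type (adjusted p = 4.12e-14) and by 1.22 ± 0.10 in the knockout (adjusted p = 4.15e-10). The ratio of Kif4 to Kif4-ps was 0.126 ± 0.00944 in unheated wild type and 1.91 ± 0.416 after heat. Over 74% of the Kif4 transcript the copies align at 79.5% identity, and no source used here says how reads shared by both were counted, so the split between them is uncertain.

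The other 9 spindle members fell in both genotypes, by 0.52 to 1.45 on the log2 scale in wild type. Kif20a, needed for cytokinesis, was the most abundant of them, with 67.6 ± 4.84 TPM in unheated wild type, 24.2 ± 2.37 after heat and 26.7 ± 3.68 in the heated knockout. Its change was -1.45 ± 0.08 in wild type and -1.30 ± 0.07 in the knockout (adjusted p = 6.7e-14 and 8.05e-13). Kif23, of the midzone, had 33.9 ± 3.39 TPM without heat and 19.4 ± 1.45 after it in wild type, against 32.5 ± 0.974 and 14.8 ± 2.20 TPM in the knockout. Kif22, which binds chromosome arms, had 17.1 ± 0.810 TPM without heat and 9.46 ± 1.29 after it in wild type, against 16.4 ± 0.490 and 7.76 ± 0.883 TPM in the knockout. Kif11, the motor that slides spindle poles apart, changed by -0.71 ± 0.10 and -0.90 ± 0.09.

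Kif20b and Kif14, both of cytokinesis, and Kif24, which acts at centrioles, changed by -0.93 ± 0.09, -1.14 ± 0.09 and -0.86 ± 0.12 in wild type and by -0.81 ± 0.08, -0.85 ± 0.09 and -0.91 ± 0.11 in the knockout. Kifc1, a minus-end motor also known for shaping the sperm head, changed by -0.53 ± 0.09 and -0.61 ± 0.08. Its near copy Kifc5b changed by -0.52 ± 0.09 and -0.59 ± 0.09. The whole Kifc1 transcript aligns to Kifc5b at 95.9% identity, so these 2 values may share reads. After heat, Kif23 and Kif22 were lower in the knockout than in wild type, by 0.38 ± 0.09 and 0.25 ± 0.08 (adjusted p = 0.000552 and 0.00474). With only the 2 heated groups in the model, Kif22 had an adjusted p of 0.0556. Kif14 was higher by 0.24 ± 0.10 (adjusted p = 0.0272), a call lost without wild-type heat replicate 3 (0.21, adjusted p = 0.0667) or knockout heat replicate 5 (0.16, adjusted p = 0.0948) and with only the 2 heated groups in the model (adjusted p = 0.0685), and -0.16 under quantile normalization.

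Most spindle members with a promoter window held a short sequence that the choice of members did not use. It was not found for Kif2b, Kif18a or Kif24. Promoter windows of 300 bases (250 before to 50 after the start, RefSeq, GRCm38.p6) were matched for 30 of the 40 members, 34 windows in all. The windows of Kif2c, Kif4, Kif14, Kif17 and Kif27, and a window of Kif1a, lie wholly inside the gene as annotated in GENCODE M21. Each of these holds a match counted below, and which start is used in testis was not tested. The cell cycle homology region, known from promoters repressed until the G2 and M phases, was searched as TTTGAA on both strands. It was present in 11 of 14 spindle members, 1 of 7 ciliary members and 1 of 8 cargo members with a window. Counted by window, that is 13 of 34 member windows (38.2%), against 17.9% of all 32851 promoter windows. In the windows of the 11 spindle members the match nearest the start began between 228 bases before and 30 bases after it, and in 9 within 100 bases. A match describes these letters only. The lines show 7 of them, 5′ to 3′ on the strand of the gene, with the match in capitals (TTCAAA is its reverse complement). Kif18b, Kif15 and Kif23 are shown as members that fell with heat, Kif4 as the one that rose, Kif2c as the one that rose in the heated knockout alone, and Kifc1 with Kifc5b because the near copies keep the match.
Kif18b, chr11:102925105-102925132, minus strand: ggaccggctagTTTGAAcgcgccgcgcc
Kif15, chr9:122951051-122951078, plus strand: ggggcgccaaaTTCAAAtctgcggccat
Kif23, chr9:61946781-61946808, minus strand: tgattggcctgTTTGAAatgcgccgggc
Kif4, chrX:100626073-100626100, plus strand: tctgggatcaaTTTGAAacttggcggtt
Kif2c, chr4:117178859-117178886, minus strand: caggctgctctTTCAAAcctgagtaatg
Kifc1, chr17:33890616-33890643, minus strand: ggaggttgaaaTTCAAAagtggcgggtg
Kifc5b, chr17:26917109-26917136, plus strand: ggaggttgaaaTTCAAAagtgactggtg

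These 7 promoters belong to genes with unlike courses. Kif4 rose with heat and Kif18b, Kif15, Kif23, Kifc1 and Kifc5b fell, so the match stood on both sides of the wild-type heat comparison: of the members with a window, 11 of 23 that fell and 2 of 6 that rose had it. The CCAAT box (CCAAT, both strands) was present in 16 of 30 members, 10 of them spindle members. Counted by window, that is 17 of 34 member windows (50%), against 37.4% of all windows. The Kif2b window holds a CCAAT box and no TTTGAA.

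A full cAMP response element, the site bound by the CREM and CREB factors that direct many spermatid genes, was searched as TGACGTCA, which reads the same on both strands. It was found in 3 of 30 members, Kif17 (in a window inside the annotated gene), Kif18a and Kif5c. Counted by window, that is 3 of 34 member windows (8.82%), against 1.79% of all windows. All 3 are shown. Their mRNAs were each lower in heated wild type, as were 23 of the 30 members with a window. Kif17 and Kif5c were higher in the heated knockout than in heated wild type, while Kif18a was not called (-0.08, adjusted p = 0.463). The part of the element in these changes was not tested. Capitals mark the element.
Kif17, chr4:138262154-138262183, plus strand, starting 86 bases before the start site: attccgtcctgTGACGTCAcggaggttgcc
Kif18a, chr2:109280757-109280786, plus strand, starting 31 bases after the start site: gtctgacgtgcTGACGTCAtccgaacggca
Kif5c, chr2:49619249-49619278, plus strand, starting 26 bases before the start site: gatctctgcagTGACGTCAccgtgccgagg

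Crem itself, a round spermatid marker here, had 380 ± 6.91 TPM in unheated wild type (n = 6), 368 ± 17.9 in the unheated knockout (n = 6), 79.0 ± 7.59 in heated wild type (n = 4) and 136 ± 14.8 in the heated knockout (n = 5). The letters GTTGCC are part of the X-box, the sequence bound by RFX factors of ciliary genes. They were present on either strand in 10 of 30 members: 4 of 7 ciliary, 3 of 8 cargo and 3 of 14 spindle members. Counted by window, that is 11 of 34 member windows (32.4%), against 12.5% of all windows.

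Among the ciliary and flagellar kinesins, Kif9 and Kif19a fell most. Kif9, a motor of the sperm flagellum (chr9:110476958-110525179, plus strand), had 174, 176 and 189 TPM in unheated wild type and 156, 171 and 177 TPM in the unheated knockout. Wild type after heat had 29.6, 22.02, 27.8 and 34.5 TPM, and the heated knockout 51.8, 45.3, 47.0, 46.6 and 59.3 TPM. All heated libraries were below all unheated ones, and the 2 heated groups did not overlap. Kif9 fell 6.26-fold in wild type (-2.62 ± 0.09, adjusted p = 6.13e-17) and 3.39-fold in the knockout (-1.75 ± 0.08, adjusted p = 8.02e-14), and the effects differed by 0.87 ± 0.12 (adjusted p = 1.35e-06).

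Kif19a, which shortens microtubules at ciliary tips (chr11:114765388-114790739, plus strand), had 9.71, 10.7 and 14.1 TPM in unheated wild type and 9.97, 10.9 and 11.4 TPM in the unheated knockout. After heat it had 1.63, 0.49, 0.86 and 1.60 TPM in wild type and 4.82, 2.40, 2.63, 1.91 and 2.80 TPM in the knockout, with no overlap between the groups. Kif19a fell 9.83-fold in wild type and 3.71-fold in the knockout, a larger fold than that of Kif9 in both. The log2 changes were -2.54 ± 0.16 and -1.63 ± 0.15 (adjusted p = 1.37e-12 and 2.15e-09), a difference of 0.91 ± 0.22 (adjusted p = 0.000795).

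Kif27, a kinesin of motile cilia (chr13:58287502-58359122, minus strand), had 186.5, 200.5 and 228 TPM in unheated wild type and 172, 189 and 214 TPM in the unheated knockout. Heated wild type had 65.3, 41.6, 56.0 and 67.3 TPM, and the heated knockout 178, 153, 151, 138 and 166 TPM. A single heated knockout library, replicate 1, reached the unheated range and no heated wild-type library came near it. Kif27 fell 3.50-fold in wild type (-1.81 ± 0.10, adjusted p = 2.13e-13). In the knockout the change was -0.29 ± 0.10 (adjusted p = 0.00915), and 0.04 and not called under quantile normalization. The effects differed by 1.52 ± 0.14 (adjusted p = 9.33e-09).

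Kif17, a kinesin-2 homodimer known in spermatids for carrying the CREM coactivator ACT (gene Fhl5), lies at chr4:138250435-138301967 on the plus strand. It had 180, 209 and 218 TPM in unheated wild type and 192, 205 and 211 TPM in the unheated knockout. After heat there were 133, 115, 122 and 139 TPM in wild type and 163, 181, 192, 189 and 179 TPM in the knockout. Heated wild type was lowest without overlap, and the heated knockout lay just under the unheated knockout. Kif17 changed by -0.69 ± 0.06 in wild type (adjusted p = 3.26e-10) and by -0.17 ± 0.06 in the knockout (adjusted p = 0.00775), where it was 0.11 and not called under quantile normalization. The effects differed by 0.52 ± 0.08 (adjusted p = 8.06e-06).

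Fhl5, named after its values were seen because it is the cargo partner of Kif17, had 51.0, 10.9, 9.99 and 17.4 TPM in heated wild type, with 442, 303, 354, 276 and 378 TPM in the heated knockout. Its unheated means were 360 ± 24.0 TPM in wild type and 354 ± 22.9 in the knockout. The wild-type fall was 16.1-fold, and 28.2-fold without replicate 1, which was also the highest library for Kif2b. In the knockout the change of -0.03 ± 0.25 was not called (adjusted p = 0.914).

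Kif3a and Kif3b, the paired motors of intraflagellar transport, fell in both genotypes. Kif3a had 58.3 ± 2.24 TPM without heat and 25.9 ± 1.85 after it in wild type, against 59.1 ± 0.892 and 27.6 ± 3.41 TPM in the knockout (log2 changes -1.14 ± 0.07 and -1.08 ± 0.06). Kif3b went from 94.0 ± 6.32 to 43.7 ± 1.08 TPM and from 91.3 ± 5.31 to 35.6 ± 3.60 TPM (-1.08 ± 0.07 and -1.34 ± 0.06). The Kif3b to Kif3a ratio was 1.51 to 1.73 in unheated wild type, 1.44 to 1.64 in the unheated knockout and 1.59 to 1.80 in heated wild type. In the heated knockout it was 1.22 to 1.38, below every other library.

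Their kinesin-2 paralog Kif3c (chr12:3365132-3406494, plus strand) went the other way. It had 0.94, 1.26 and 1.49 TPM in unheated wild type and 1.32, 1.495 and 1.67 TPM in the unheated knockout. The heated wild-type libraries had 6.02, 6.44, 4.58 and 3.91 TPM, and the heated knockout 2.37, 3.38, 2.75, 3.65 and 2.28 TPM. No heated library overlapped an unheated one, and the heated groups were apart. The rise was 4.15-fold in wild type (1.45 ± 0.12, adjusted p = 8.31e-11) and 1.94-fold in the knockout (0.63 ± 0.11, adjusted p = 1.62e-05), a difference of -0.81 ± 0.16 (adjusted p = 9.21e-05). Kif6, of motile cilia, changed by -0.58 ± 0.08 and -0.88 ± 0.08, with means of 7.63 ± 0.503 and 4.76 ± 0.466 TPM for wild type and of 7.45 ± 0.652 and 3.62 ± 0.594 TPM for the knockout.

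The cargo kinesins held the largest rises. Kif5b, the widely made heavy chain of kinesin-1, had 11.03, 11.9 and 14.8 TPM in unheated wild type and 12.2, 14.6 and 16.7 TPM in the unheated knockout. Wild type after heat had 80.5, 91.8, 75.0 and 77.0 TPM, and the heated knockout 30.9, 33.8, 23.5, 42.3 and 34.8 TPM. The unheated, heated knockout and heated wild-type libraries formed 3 separate ranges. Kif5b rose 6.62-fold in wild type (2.63 ± 0.12, adjusted p = 3.73e-15) and 2.27-fold in the knockout (1.11 ± 0.11, adjusted p = 6.42e-09), and the effects differed by -1.52 ± 0.16 (adjusted p = 4.92e-08).

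Kif5c, a kinesin-1 heavy chain best known from neurons (chr2:49619298-49774778, plus strand), had 30.8, 31.4 and 34.9 TPM in unheated wild type and 32.5, 33.8 and 36.0 TPM in the unheated knockout. It had 8.99, 6.71, 6.48 and 7.98 TPM in wild type after heat and 45.0, 35.5, 43.3, 34.2 and 38.9 TPM in the heated knockout. The heated wild-type libraries were far below all others, while the heated knockout overlapped the unheated knockout. Kif5c fell 4.22-fold in wild type (-1.95 ± 0.08, adjusted p = 1.11e-15). In the knockout it was higher by 0.19 ± 0.08 (adjusted p = 0.0225), a call lost under median-of-ratios scaling (0.15) and without knockout heat replicate 1 (0.14, adjusted p = 0.0838) or 3 (0.16, adjusted p = 0.0682). It was 5.23-fold higher in the heated knockout than in heated wild type, and the effects differed by 2.15 ± 0.11 (adjusted p = 1.38e-11).

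Kif5a, the third heavy chain, had 1.46 ± 0.220 TPM in unheated wild type and 3.77, 3.61, 2.78 and 3.30 TPM after heat, a rise of 0.83 ± 0.10 (adjusted p = 1.1e-07). In the knockout it went from 1.61 ± 0.310 to 1.99 ± 0.352 TPM, which was not called (adjusted p = 0.0618). That change was called without knockout control replicate 2 or 6 or knockout heat replicate 3 (adjusted p = 0.043, 0.0189 and 0.0146) and under quantile normalization (0.0261). The Kif5c to Kif5b ratio was 2.62 ± 0.278 in unheated wild type, 2.37 ± 0.284 in the unheated knockout, 0.0937 ± 0.0173 in heated wild type, with 1.26 ± 0.402 in the heated knockout, where it ran from 0.809 to 1.84.

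Kif21a, a kinesin-4 that slows microtubule growth (chr15:90933276-91049948, minus strand), had 53.1, 51.6, 52.6 and 43.4 TPM in wild type after heat and 24.2, 30.0, 20.1, 30.6 and 30.0 TPM in the heated knockout, above unheated values of 7.42 to 9.78 and 8.70 to 12.9 TPM. The 3 ranges were separate. It rose 5.94-fold in wild type (2.44 ± 0.12, adjusted p = 1.08e-14) and 2.61-fold in the knockout (1.30 ± 0.11, adjusted p = 4.7e-10), a difference of -1.14 ± 0.16 (adjusted p = 1.71e-06). Its paralog Kif21b, by contrast, fell in wild type, from 14.0 ± 1.65 to 7.58 ± 0.787 TPM (-0.80 ± 0.08, adjusted p = 1.32e-09). In the knockout it had 14.3 ± 0.820 and 12.5 ± 0.424 TPM, and this change of -0.18 ± 0.07 (adjusted p = 0.026) was not called without knockout control replicate 1 or 2 or knockout heat replicate 1 (adjusted p = 0.0546, 0.0548 and 0.06).

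Kif1c, a motor for vesicles (chr11:70700548-70731964, plus strand), had 22.6, 22.1, 16.8 and 18.8 TPM in wild type after heat and 12.3, 15.5, 14.4, 16.4 and 13.0 TPM in the heated knockout. All were above the unheated libraries given before, and heated wild type lay just above the heated knockout. The rise was 3.68-fold (1.70 ± 0.09, adjusted p = 4.64e-14) and 2.09-fold (0.96 ± 0.08, adjusted p = 6.95e-10), a difference of -0.74 ± 0.12 (adjusted p = 1.3e-05).

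Kif1a, known from synaptic vesicle transport (chr1:93015464-93101951, minus strand), had 5.90, 7.04 and 8.02 TPM in unheated wild type and 6.48, 7.22 and 7.99 TPM in the unheated knockout. After heat it had 13.5, 13.5, 11.9 and 12.8 TPM in wild type and 9.83, 10.8, 11.2, 11.9 and 10.5 TPM in the knockout. Both heated groups were above the unheated ones and overlapped each other. It rose by 0.81 ± 0.08 and 0.53 ± 0.08 on the log2 scale (adjusted p = 3.73e-09 and 1.72e-06). The difference of -0.28 ± 0.11 (adjusted p = 0.0237) was not called under median-of-ratios scaling (-0.19) or quantile normalization (-0.12).

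Kif13a, an endosome motor (chr13:46749087-46929867, minus strand), had 3.60, 4.29 and 4.58 TPM in unheated wild type and 3.77, 4.01 and 4.66 TPM in the unheated knockout. Heated wild type had 8.33, 11.2, 9.51 and 8.65 TPM, and the heated knockout 4.04, 5.29, 4.34, 5.77 and 4.49 TPM. Heated wild type stood alone, and the heated knockout overlapped the unheated knockout. Kif13a rose 2.21-fold in wild type (0.98 ± 0.09, adjusted p = 5.35e-10). The knockout change of 0.18 ± 0.08 (adjusted p = 0.0479) was not called without any of 13 single libraries nor under 4 of 7 other settings. The effects differed by -0.80 ± 0.12 (adjusted p = 4.11e-06).

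Kif2a, the third kinesin-13 and one that acts in the cytoplasm as well as the spindle (chr13:106958996-107022126, minus strand), had 139.8, 145 and 163 TPM in unheated wild type and 134, 143 and 149 TPM in the unheated knockout. After heat it had 40.8, 34.2, 35.1 and 39.1 TPM in wild type and 55.6, 47.2, 45.8, 50.3 and 65.8 TPM in the knockout. The 3 ranges were separate, with heated wild type lowest. The fall was 3.95-fold (-1.96 ± 0.08, adjusted p = 7.9e-16) and 2.67-fold (-1.41 ± 0.07, adjusted p = 3.66e-13), a difference of 0.54 ± 0.11 (adjusted p = 0.000115). Unlike Kif2b, Kif2a held a like proportion to Kif2c in both heated groups, 0.157 ± 0.0177 in wild type and 0.127 ± 0.0186 in the knockout, from 0.488 ± 0.0284 in unheated wild type.

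The other 5 cargo motors had smaller rises or falls than Kif5b and Kif2a. Kifc3, a minus-end motor of cell junctions, fell in wild type, from 36.6 ± 4.78 to 12.1 ± 2.40 TPM (-1.53 ± 0.11, adjusted p = 2.14e-11), and in the knockout, from 38.8 ± 4.20 to 26.8 ± 1.99 TPM (-0.51 ± 0.11, adjusted p = 0.000155), a difference of 1.02 ± 0.16 (adjusted p = 5.1e-06). Kif16b, an early endosome motor, fell in wild type, from 15.0 ± 1.11 to 11.6 ± 0.804 TPM, and in the knockout, from 14.4 ± 0.722 to 8.23 ± 1.31 TPM (adjusted p = 0.00052 and 7.78e-09). Kif1b, a motor for mitochondria and vesicles, was the single member not called in wild type, at 22.4 ± 1.40 TPM without heat and 22.6 ± 1.81 TPM after it. In the knockout Kif1b was lower, at 22.5 ± 1.57 and 16.9 ± 3.23 TPM (adjusted p = 0.0003). Kif13b rose from 7.95 ± 0.380 to 11.6 ± 0.791 TPM in wild type (adjusted p = 1.46e-05) and was 8.03 ± 0.635 and 7.64 ± 1.32 TPM in the knockout (adjusted p = 0.396). Kifc2 rose in both, from 2.08 ± 0.622 to 3.24 ± 0.300 and from 2.10 ± 0.433 to 2.92 ± 0.231 TPM (adjusted p = 0.00107 and 0.01).

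Of the entries that are not motor genes, Kif16bos had 15.5, 16.2 and 18.8 TPM in unheated wild type and 15.9, 17.9 and 19.0 TPM in the unheated knockout. It lies on the plus strand at chr2:142902965-142903572, beyond the start of Kif16b (chr2:142617474-142901531, minus strand), and does not overlap it in GENCODE M21. After heat it had 6.13, 3.93, 5.88 and 6.86 TPM in wild type and 18.1, 17.1, 19.1, 16.6 and 18.7 TPM in the knockout. Heated wild type was apart from all others, and the knockout groups overlapped. Kif16bos fell by 1.42 ± 0.10 on the log2 scale in wild type (adjusted p = 4.4e-12) and was 0.03 ± 0.09 in the knockout (adjusted p = 0.804), a difference of 1.45 ± 0.13 (adjusted p = 7.43e-09). Kif1bp fell by 0.60 ± 0.06 and 0.61 ± 0.05, with means of 53.0 ± 2.07 and 34.5 ± 2.09 TPM for wild type and of 51.7 ± 2.21 and 33.6 ± 2.42 TPM for the knockout.

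Compared directly after heat, 14 kinesin members were higher in the knockout than in wild type (34.4% of all genes tested) and 15 were lower (49.0%). The median difference over the members was -0.06, against -0.20 over all genes. Among the ciliary members 4 were higher and 3 lower, among the cargo members 4 and 9, and among the spindle members 4 and 3. The 5 largest positive differences were those of Kif2b (3.65), Kif5c (2.24), Kif15 (1.93), Kif16bos (1.52) and Kif27 (1.45), all on the log2 scale. The 5 largest negative ones were those of Kif5b (-1.29), Kif21a (-0.88), Kif13a (-0.85), Kif3c (-0.68) and Kif4 (-0.64). Calls were added for Kif20a (0.19) without wild-type heat replicate 4, for Kif18b (0.26) without wild-type heat replicate 1, and for Kif11 (-0.28) and Kif18a (-0.21) without knockout heat replicate 5 (adjusted p = 0.0335, 0.0476, 0.0112 and 0.00937). This comparison shares the heated libraries with the heat comparisons, so its values restate them from the other side.

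The test of the difference itself, the heat effect in the knockout minus that in wild type, passed for 28 of the 40: 14 positive (33.2% of all genes tested) and 14 negative (47.6%). The median was -0.06 over the members and -0.23 over all genes. Under median-of-ratios scaling the split was 15 to 10, and under quantile normalization 16 to 11. Under 1 or both of these scalings the calls of Kif1a, Kif3b, Kif6, Kif23 and Kif14 were lost, and Kif20a, Kif3a and Kif1bp were called. Without knockout heat replicate 5, Kif11 (-0.27) and Kif22 (-0.26) were also called, as was Kif22 without wild-type heat replicate 3 (adjusted p = 0.0456, 0.0166 and 0.0191). Without wild-type heat replicate 1, Kif6 was not called (-0.24, adjusted p = 0.0621), and Kif14 was not called without any of 13 single libraries (adjusted p from 0.0544 to 0.0941). Heat changes were farther from 0 in wild type than in the knockout for 27 members (67.5%) and nearer for 13, beside 84% of all genes tested that were farther from 0 in wild type. That held for 12 of 14 cargo members, 6 of 8 ciliary members and 7 of 15 spindle members.

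**Figure D4:**
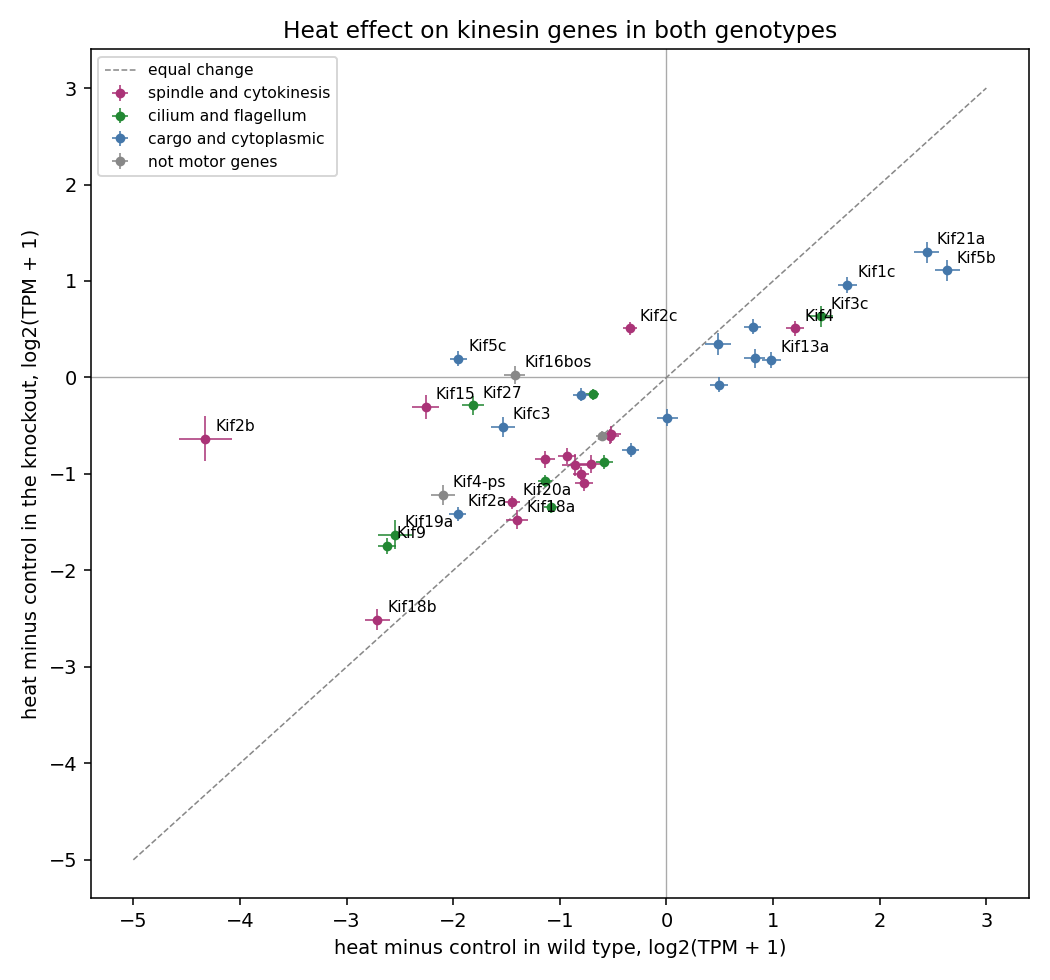
Heat effect on each kinesin entry in wild type (horizontal) and in the knockout (vertical), as the difference of mean log2(TPM + 1); bars are standard errors, colour is the role and the dashed line marks equal change. Kif5b, Kif21a and Kif1c at upper right, and Kif2b, Kif15, Kif27 and Kif5c at left, lie away from the dashed line, while Kif18b, Kif18a and Kif20a lie near the line.

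The genes that work with kinesins were counted from 4 lists, whose counts are to be read against all genes tested: 47.0% higher and 44.6% lower after heat in wild type, 41.3% and 41.5% in the knockout, and 34.4% and 49.0% between the heated genotypes. Of 23 genes of the intraflagellar transport particle, which Kif3a and Kif3b carry, 19 were lower and 2 higher in heated wild type (median -1.42), 20 were lower and 0 higher in the heated knockout (median -1), and 15 were higher and 3 lower in the heated knockout than in heated wild type. Ift140, of the retrograde complex, had 180.2 ± 2.94 TPM in unheated wild type, 23.8 ± 5.29 in heated wild type, with 47.6 ± 5.38 in the heated knockout. Ift43, of the same complex, had 198 ± 6.47, 52.1 ± 5.21 and 53.1 ± 3.09 TPM. Traf3ip1, of the anterograde complex, had 40.7 ± 1.86, 8.18 ± 0.862 and 12.1 ± 1.65 TPM. All 3 fell in both genotypes, with adjusted p-values of 1.75e-14 or less.

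Of 20 spindle partners of the mitotic motors, 15 were lower and 4 higher in heated wild type (median -0.93), beside 44.6% and 47.0% of all genes tested, and 15 lower and 2 higher in the heated knockout (median -1.06), beside 41.5% and 41.3%. Plk1, a mitotic kinase, had 52.4 ± 3.69 TPM without heat and 3.25 ± 0.750 after it in wild type, against 48.9 ± 3.02 and 4.51 ± 2.20 TPM in the knockout. Ccnb2, a cyclin of M phase, went from 137 ± 3.86 to 18.9 ± 3.16 TPM and from 136 ± 2.25 to 30.2 ± 7.11 TPM. Birc5, of the chromosomal passenger complex, went from 76.6 ± 2.10 to 11.6 ± 2.02 TPM and from 74.2 ± 2.19 to 26.5 ± 3.90 TPM.

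Of 17 light chains, adaptors and kinesins under other names, 9 were higher and 8 lower in heated wild type (median 0.25), near the 47.0% and 44.6% of all genes tested, and 4 higher and 7 lower in the heated knockout (median -0.04), beside 41.3% and 41.5%. Kifap3, the subunit that joins Kif3a and Kif3b, had 112.5 ± 6.57 TPM without heat and 31.9 ± 5.25 after it in wild type, against 109 ± 5.41 and 81.1 ± 10.4 TPM in the knockout, a difference of the effects of 1.37 ± 0.13 (adjusted p = 7.79e-09). Mapk8ip2, a kinesin-1 scaffold, went from 27.2 ± 2.38 to 1.27 ± 0.575 TPM and from 26.1 ± 1.77 to 3.82 ± 0.906 TPM. Trak2, which links kinesin-1 to mitochondria, went from 3.10 ± 0.355 to 12.5 ± 1.18 TPM and from 3.68 ± 0.309 to 6.90 ± 0.911 TPM.

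The 4 kinesin light chains, which bind the Kif5 heavy chains, were chosen after their values were seen. Klc3, known from the sperm tail, had 16.9 ± 3.51 TPM without heat and 3.85 ± 1.42 after it in wild type, while it was at 17.3 ± 3.65 and 17.6 ± 1.22 TPM in the knockout (log2 changes -1.90 ± 0.17 and 0.04 ± 0.16). Klc1, Klc2 and Klc4 rose in wild type, by 0.85 ± 0.10, 0.30 ± 0.10 and 0.67 ± 0.10, and in the knockout Klc1 rose by 0.46 ± 0.09 while Klc2 and Klc4 were not called (adjusted p = 0.688 and 0.893).

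Cytoplasmic dynein and dynactin, the motor that walks the other way, had 24 genes tested, of which 13 were lower and 8 higher in heated wild type (median -0.26), beside 44.6% and 47.0% of all genes tested, and 16 lower and 5 higher in the heated knockout (median -0.56), beside 41.5% and 41.3%. Actr10, of dynactin, had 637 ± 24.9 TPM without heat and 171 ± 18.6 after it in wild type, against 625.1 ± 23.1 and 385 ± 44.6 TPM in the knockout. Actr1a, the dynactin filament subunit, went from 204 ± 1.76 to 97.2 ± 3.22 TPM and from 209 ± 3.08 to 109.9 ± 6.03 TPM. Dynll2, a light chain, rose from 125 ± 2.51 to 301 ± 14.9 TPM and from 129 ± 5.95 to 227 ± 11.7 TPM. None of the genes in these 4 lists was called between the unheated genotypes.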

How the data were processed

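Per the labels' protocols, TruSeq stranded mRNA libraries of testis RNA were run on an Illumina sequencer. STAR and mm10 are named in the submitters' processing notes. The authors deposited TPM per gene symbol, with the counting tool, annotation and read depth not given in the sources used here. Values were transformed to log2(TPM + 1) and entries with a mean of at least 1 TPM kept. All 21 libraries entered 1 model of 4 group means without a replicate block (limma 3.58.1, R 4.3.3, mean-variance trend), with Benjamini-Hochberg adjustment over 18977 entries per comparison and calls at 0.05. Folds are ratios of mean TPM; errors of TPM are SD and those of log2 changes are standard errors. The fitting was tested on simulated data. Coordinates are GENCODE M21, and transcript identity came from blastn 2.17.0. Alternatives were a pseudocount of 0.1, median-of-ratios and quantile scaling, no filter, no trend, 2-group models, a replicate block and leaving out each library.

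The members and lists were chosen with earlier results of these data known. Per-library values were given for the 5 called members that changed most each way in 4 comparisons, the 2 with the smallest p without heat and the 5 most abundant, and partners were the 3 most strongly called per list. Lists were 3 kinesin roles, 4 partner lists and 10 sets of cell type markers. P-values measure the spread between these libraries. The labels give no batch, so no batch could be separated from the groups.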

Additional observations from a re-analysis of the deposited data

Results flagged for a closer look

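In 160 sets of values (40 members in 4 groups), 16 held a library far from the others, by a gap test that chance alone passes in about 1 in 20 sets. Among heated wild-type libraries, Kif2b was high in replicate 1 (79.47 TPM), Kif20a was high in replicate 4 (27.76 TPM), Kif21a and Kif16b were low in replicate 4 (43.36 and 10.43 TPM), and Kifc2 was low in replicate 3 (2.79 TPM). In the heated knockout, replicate 5 was high for Kif20a (33.16 TPM), Kif18a (6.09), Kif18b (4.86) and Kifc5b (3.31), and replicate 4 for Kif6 (4.65 TPM). In unheated wild type, replicate 4 was low for Kif17 (179.64 TPM) and Kif13a (3.60 TPM) and high for Kif3b (106.54 TPM), and replicate 3 was high for Kif5c (34.88 TPM). In the unheated knockout, replicate 6 was high for Kif1c (8.31 TPM) and Kif13b (9.28 TPM).

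Among all genes tested, the difference of the heat effects was called positive for 33.2% and negative for 47.6%. The effect of heat differed between the genotypes for 28 members, by the limma test of that difference (knockout minus wild type, log2). It was positive for Kif2b (3.69), Kif5c (2.15), Kif15 (1.95), Kif27 (1.52), Kif16bos (1.45), Kifc3 (1.02), Kif19a (0.913), Kif4-ps (0.879), Kif9 (0.873), Kif2c (0.85), Kif21b (0.625), Kif2a (0.544), Kif17 (0.519) and Kif14 (0.287). It was negative for Kif5b (-1.52), Kif21a (-1.14), Kif3c (-0.814), Kif13a (-0.802), Kif1c (-0.736), Kif4 (-0.694), Kif5a (-0.629), Kif13b (-0.566), Kif1b (-0.424), Kif16b (-0.416), Kif23 (-0.326), Kif6 (-0.293), Kif1a (-0.285) and Kif3b (-0.254).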

How the results depend on the processing

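Counts of called kinesins kept within 1.5 times their value under every alternative run, except that a model of the 2 unheated groups alone called 1 member (Kif1c) higher in the knockout where none was called. Leaving out 1 library gave 10 higher and 29 lower for heat in wild type each time, 9 to 11 and 26 to 27 for heat in the knockout, 13 to 15 and 15 to 17 between heated genotypes, 13 to 14 and 13 to 17 for the difference of the heat effects, and 0 without heat. Of the values called before or after a change of setting that kept every library, 6 changed sign, each under quantile normalization: the heat change in the knockout of Kif17 (0.108) and Kif27 (0.037), the difference between heated genotypes of Kif1bp (0.11) and Kif14 (-0.159), and the difference of the heat effects of Kif1bp (0.163) and Kif14 (-0.0492). Among values called in neither, 12 changed sign under median-of-ratios scaling and 11 under quantile normalization. The cause was not tested. With a replicate block, calls were 10 higher and 29 lower for heat in wild type, 11 and 27 in the knockout, 13 and 15 between heated genotypes, 13 and 14 for the difference, and 0 without heat, with Kif5a gained in the heated knockout (0.213) and Kif14 lost in 2 comparisons (0.224 and 0.273). The correlation of same-numbered libraries' deviations ran from -0.228 to 0.314 over 28 pairs (4 over 0.1), and 1 of 21 libraries correlated best with its own number. Read depth cannot be recovered from TPM, so the error of members near 1 TPM, such as Kif5a, Kif3c and Kifc2, rests on the replicates.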
